A study of Homo sapiens with 6 samples.

Results

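The genes described here are CYP1A1 and CYP1B1, which encode cytochrome P450 enzymes, and 4 genes of the aryl hydrocarbon receptor: AHR, ARNT, AHRR and TIPARP. These 6 of the 78932 gene rows in the count table were taken by symbol, and each symbol matched 1 row. They were picked after their values in the comparison of docetaxel with control were known, so their own differences in it are given as a description, without a p-value. Poly(A)-selected RNA was sequenced from HCC1937, an established breast cancer cell line with a BRCA1 mutation and neither hormone receptor expression nor HER2 amplification. There were 3 control libraries and 3 libraries from cells given docetaxel, a microtubule-stabilising taxane, at 8 nM for 24 h. The labels give no vehicle for the controls, and both groups carry the line's own genotype. Both groups are a single cell line in culture, and the labels name the libraries biological replicates without saying whether cultures or days were separate. The study asks about estrogen receptor levels and arachidonic acid metabolism after docetaxel, and CYP1A1 and CYP1B1 can oxidise both estradiol and arachidonic acid.

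The aryl hydrocarbon receptor is a ligand-activated transcription factor of the bHLH-PAS family. It waits in the cytoplasm with HSP90 and p23, enters the nucleus when a ligand such as dioxin, benzo[a]pyrene or a tryptophan metabolite binds, and pairs there with ARNT. The dimer binds DNA at the xenobiotic response element, whose core is GCGTG, and induces CYP1A1, CYP1B1, AHRR and TIPARP. AHRR, the receptor's repressor, and TIPARP, a mono-ADP-ribosyltransferase, both restrain the receptor in turn. In breast tissue CYP1B1 is the P450 known for turning estradiol into 4-hydroxyestradiol, and CYP1A1 favours the 2-hydroxylation.

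In the RefSeq promoter table (GRCh38.p14), 5 of the 6 symbols had an entry, all but CYP1B1. The 4 stretches below are shown so that the receptor's core motif can be looked for just upstream of a start site in 3 of its known targets and in the receptor gene itself. Each is the 250 bases before a start site, 5′ to 3′ on the gene's strand, with GCGTG or its reverse complement CACGC in capitals.
CYP1A1, chr15:74725529-74725778, minus strand: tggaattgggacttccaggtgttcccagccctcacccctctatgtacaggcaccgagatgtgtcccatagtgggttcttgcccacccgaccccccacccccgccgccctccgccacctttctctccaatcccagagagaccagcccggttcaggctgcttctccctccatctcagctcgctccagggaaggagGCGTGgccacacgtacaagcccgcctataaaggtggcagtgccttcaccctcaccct
AHRR, chr5:321464-321713, plus strand: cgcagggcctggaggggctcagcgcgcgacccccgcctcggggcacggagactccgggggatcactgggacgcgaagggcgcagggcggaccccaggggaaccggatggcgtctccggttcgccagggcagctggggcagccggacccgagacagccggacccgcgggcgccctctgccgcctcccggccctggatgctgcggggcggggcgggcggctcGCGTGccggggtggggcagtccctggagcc
TIPARP, chr3:156674340-156674589, plus strand: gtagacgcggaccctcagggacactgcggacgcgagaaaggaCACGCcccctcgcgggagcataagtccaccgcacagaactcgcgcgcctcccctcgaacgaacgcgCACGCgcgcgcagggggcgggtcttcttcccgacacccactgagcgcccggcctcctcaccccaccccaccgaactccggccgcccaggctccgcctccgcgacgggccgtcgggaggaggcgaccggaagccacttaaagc
AHR, chr7:17298402-17298651, plus strand: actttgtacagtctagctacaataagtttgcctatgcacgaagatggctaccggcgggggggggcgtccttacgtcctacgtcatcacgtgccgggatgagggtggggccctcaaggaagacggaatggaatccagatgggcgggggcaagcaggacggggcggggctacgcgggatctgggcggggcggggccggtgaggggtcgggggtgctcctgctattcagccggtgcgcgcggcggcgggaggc
In these stretches the core occurs 1 time in the CYP1A1 stretch, 1 time in that of AHRR, 2 times in that of TIPARP and 0 times in that of AHR. Of 35116 promoter windows in the table, each 300 bases long, 36.5% hold GCGTG on either strand. The longer TNGCGTG, which contains it, is held by 5.51% of windows, among them 1 of the AHRR windows and 0 of those of CYP1A1, AHR, ARNT or TIPARP. The AHR window holds 1 core after the start site, at position 38, and so outside the stretch shown. The 35116 windows were not matched for GC content. The windows of the stretches shown had a GC content of 61.0% (CYP1A1), 79.3% (AHRR), 71.0% (TIPARP) and 67.3% (AHR). A match is a description of these letters only. The well-studied receptor sites of CYP1A1 lie further upstream than this window, and AHRR and TIPARP have other start sites in the table. At these, the second AHRR window holds 2 cores and the other TIPARP windows hold 0, as does the ARNT window.

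Gene counts totalled between 38622062 and 41675186 per library (exact two-sided permutation test of the groups, p = 0.3, n = 3 each, where 0.1 is the smallest p possible). A count of 0 allows up to 3 counts, which is 0.0705 to 0.0787 CPM here and covers counting error only. CPM, counts scaled to a common library total, are scaled by TMM throughout, and a gene is called changed at an adjusted p under 0.05 in edgeR's quasi-likelihood test over 18040 genes. Of these genes 17.0% were called, 9.14% higher and 7.82% lower with docetaxel. Of 14 epithelial markers 7 had enough reads to test and 4 were called higher. Their summed level was 2433 to 2539 CPM in control and 2850 to 2915 CPM with docetaxel, nearly all from KRT8 and KRT18, while EPCAM had 16 reads in all libraries together and CDH1 164. Fibroblasts are a cell type rich in CYP1B1. The 10 fibroblast markers summed to 139 to 144 CPM in control and 146 to 151 CPM with docetaxel, of which COL1A1 averaged 140.0 CPM and PDGFRB 4.57 CPM. The other 8, among them COL1A2, DCN and LUM, averaged between 0.0257 CPM (FAP) and 0.244 CPM (THY1). Endothelial markers summed to at most 22.7 CPM in any library, mostly ERG. Leukocyte markers summed to 1.69 to 2.84 CPM in control and 3.33 to 4.35 CPM with docetaxel, with 1 of 3 tested called higher. PTPRC, CD3E and MS4A1 had at most 3 reads in any library. The part of these markers in the results was not tested, and in bulk RNA fewer expressing cells and less RNA per cell cannot be told apart.

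CYP1B1 was the most abundant of the 6 genes per length. Levels between genes are compared as RPKM, CPM per kilobase of the deposited gene length. Positions given with the 6 genes are those of RefSeq. Their spans in GENCODE 29, used below for overlaps, are wider, as for CYP1B1 (38066973 to 38109902) and AHR (16916359 to 17346152). In control, CYP1B1 (ENSG00000138061, GRCh38 chromosome 2, 38067509 to 38076151, minus strand) averaged 11.3 ± 0.5 RPKM (SD, n = 3) and ARNT 6.31 ± 0.24 RPKM. TIPARP followed at 2.92 ± 0.12, AHR at 2.14 ± 0.29, CYP1A1 at 0.273 ± 0.130 and AHRR at 0.118 ± 0.037 RPKM. The median over all tested genes was 2.11 RPKM. In control each gene's 3 libraries stood clear of those of the next gene in this order, except that CYP1A1, at 0.126 to 0.375 RPKM, overlapped AHRR, at 0.0803 to 0.154 RPKM. With docetaxel the order was the same, and CYP1A1, at 0.162 to 0.328 RPKM, did not overlap AHRR, at 0.0498 to 0.107 RPKM.

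The members of each functional pair thus stood at different levels. CYP1B1 exceeded its close relative CYP1A1 41.3-fold in mean RPKM in control and 37.5-fold with docetaxel, with a library range of 24.6 to 90.5. AHR exceeded its repressor AHRR 18.1-fold in control and 20.4-fold with docetaxel. ARNT, the shared partner, exceeded AHR 2.95-fold in control and 3.70-fold with docetaxel.

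Among the 56 protein-coding cytochrome P450 genes in the table, 17 had enough reads to test and 9 had 0 reads in all libraries. CYP1B1 and CYP2S1, an epithelial P450 also known as a receptor target, were the most abundant in control, at 11.3 ± 0.5 and 11.1 ± 0.2 RPKM (SD, n = 3 each). CYP27B1, the vitamin D 1α-hydroxylase, averaged 3.81 RPKM and CYP26B1, which clears retinoic acid, 2.93 RPKM. CYP11A1, the cholesterol side-chain cleavage enzyme, averaged 1.35 and CYP2D6, a drug-metabolising enzyme, 1.34 RPKM. CYP1A1 stood in place 13, and CYP1A2, its neighbour on chromosome 15, had 4 reads in all. These places rest on the deposited gene lengths. CYP3A5, in place 14, had a higher mean CPM in control than CYP1A1 (1.71 against 0.916). CYP51A1, a cholesterol synthesis enzyme that most cells need, averaged 0.372 RPKM and was chosen here after its value was seen.

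**Figure D1:**
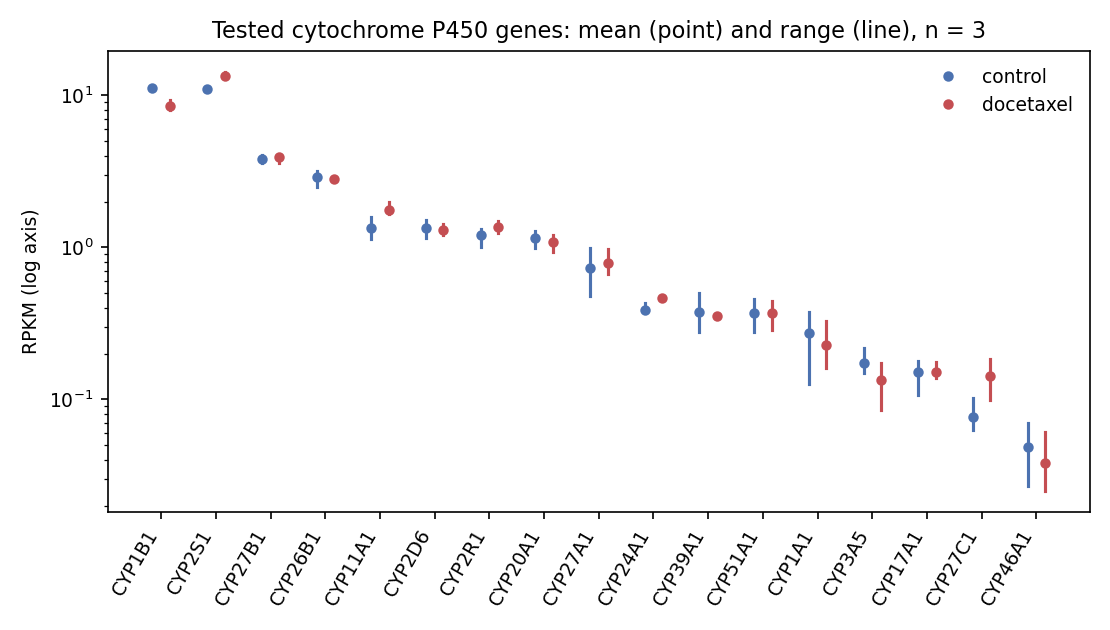
Level of each tested cytochrome P450 gene in RPKM on a log axis, with the mean as a point and the range of the 3 libraries as a line, control in blue and docetaxel in red. CYP1B1 and CYP2S1 lie together in control, at 11.3 and 11.1 RPKM, and apart with docetaxel, and CYP1A1 is in place 13.

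In RPKM the leading P450 genes overlapped in control and stood apart with docetaxel. In control CYP1B1 stood at 10.8, 11.4 and 11.6 RPKM in replicates 1 to 3 and CYP2S1 at 11.2, 10.9 and 11.0 RPKM, so that they overlapped. With docetaxel CYP1B1 stood at 9.37, 8.07 and 8.21 RPKM and CYP2S1 at 12.7, 14.3 and 13.1 RPKM, with CYP2S1 higher in all 3 libraries. Which gene leads rests on the deposited gene lengths. In mean CPM CYP1B1 exceeded CYP2S1 in both groups, at 67.8 against 30.0 in control and 51.5 against 36.3 with docetaxel. CYP1B1 made up 28.6% to 31.2% of the summed RPKM of P450 genes in the control libraries and 21.2% to 25.4% in the docetaxel libraries. CYP2S1 rose by 0.28 ± 0.07 on the log2 scale (SE, edgeR quasi-likelihood, Benjamini-Hochberg adjusted p = 0.0055). That call was lost without docetaxel replicate 2 (0.22, adjusted p = 0.069). It was also lost when library trends on transcript GC and gene length were removed by offsets, as set out after the 6 genes (0.10, adjusted p = 0.48).

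CYP1B1 was lower in every docetaxel library than in every control library. By replicate, its read counts were 2552, 2919 and 2890 without docetaxel and 2172, 1852 and 1909 after it. These were 64.7, 68.6 and 70.1 CPM against 56.5, 48.6 and 49.5 CPM. Docetaxel replicate 1 was the nearest to the controls. The log2 fold change was -0.40 ± 0.06 (SE), a 0.760-fold level with a 95% confidence interval from 0.697 to 0.827. CYP1B1 was called lower in 16 of 17 alternative fits, the exception being a test against a fold of 1.5. These fits reuse the libraries in which the gene was picked, so they describe the choice and give no separate support.

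CYP1A1 (ENSG00000140465, chromosome 15, 74719542 to 74725528, minus strand) had few reads, namely 42, 18 and 52 in the controls against 25, 42 and 21 after docetaxel. In CPM these were 1.07, 0.423 and 1.26 in control and 0.650, 1.10 and 0.544 with docetaxel. The highest and the lowest of the 6 values were both controls, and the groups overlapped. The log2 fold change was -0.26 ± 0.42 (SE), and the 95% interval ran from 0.460-fold to 1.52-fold. It was not called, and without control replicate 3 the log2 fold change was 0.05. The interval covers both no difference and a difference of the size seen in CYP1B1.

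AHR (ENSG00000106546, chromosome 7, 17298652 to 17346147, plus strand) was the other member called lower. Its libraries held 17.4, 19.4 and 14.8 CPM in control and 14.4, 13.5 and 11.2 CPM with docetaxel. The groups did not overlap, and control replicate 3 and docetaxel replicate 1 were the closest pair. The log2 fold change was -0.40 ± 0.11 (SE), with an interval from 0.649-fold to 0.884-fold. The call was lost without control replicate 2 or docetaxel replicate 3 (log2 fold change of -0.30 in both cases). The call was also lost when the trend on GC content and length was removed (-0.20 ± 0.10, SE).

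ARNT (ENSG00000143437, chromosome 1, 150809713 to 150876599, minus strand), the partner that AHR needs to bind DNA, overlapped between groups. It stood at 42.2, 40.6 and 39.2 CPM in control and 40.0, 34.4 and 41.7 CPM with docetaxel, where only replicate 2 was below every control. Its log2 fold change was -0.07 ± 0.07 (SE), and the 95% interval, from 0.862-fold to 1.05-fold, did not reach the mean fold of CYP1B1 or AHR. It overlapped the interval of AHR, which ended at 0.884-fold. Whether ARNT differs in response from CYP1B1 or AHR was not tested. AHRR (ENSG00000063438, chromosome 5, 321714 to 438285, plus strand), the repressor, was near the bottom of the tested range, with read counts of 30, 62 and 47 for the controls and 30, 18 and 39 after docetaxel. Its groups overlapped, and its log2 fold change of -0.57 ± 0.38 (SE) had a wide interval, from 0.393-fold to 1.16-fold. ARNT and AHRR were not called.

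TIPARP (ENSG00000163659, chromosome 3, 156674590 to 156706770, plus strand), a target often used to read receptor activity, overlapped between groups. It stood at 14.4, 13.4 and 14.3 CPM in control and 13.3, 14.5 and 14.6 CPM with docetaxel, with both groups inside the same narrow band. The log2 fold change was 0.01 ± 0.10 (SE), with an interval from 0.876-fold to 1.16-fold and a sign that turned in 4 of 17 alternatives. The interval excludes a fall as large as the mean fold of CYP1B1. Whether CYP1B1 and TIPARP differ in response was not tested.

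In all, 2 of the 6 genes were called lower and 0 higher, beside 7.82% and 9.14% of all tested genes (17.0% in either direction), and DESeq2 and limma-voom gave the same counts. At an unadjusted p under 0.05 the edgeR counts were also 2 lower and 0 higher. Over the 6, log2 fold changes had a median of -0.33, against 0.01 over all tested genes. Docetaxel libraries all lay below the controls for CYP1B1 and AHR, which was so for 15.0% of tested genes, and 32.0% did not overlap in either direction. Scaled by library size alone, 6.08% of tested genes were called higher and 10.3% lower (16.4% together), and still 2 of the 6 lower. Since the genes were picked with this comparison known, these counts describe the choice.

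**Figure D2:**
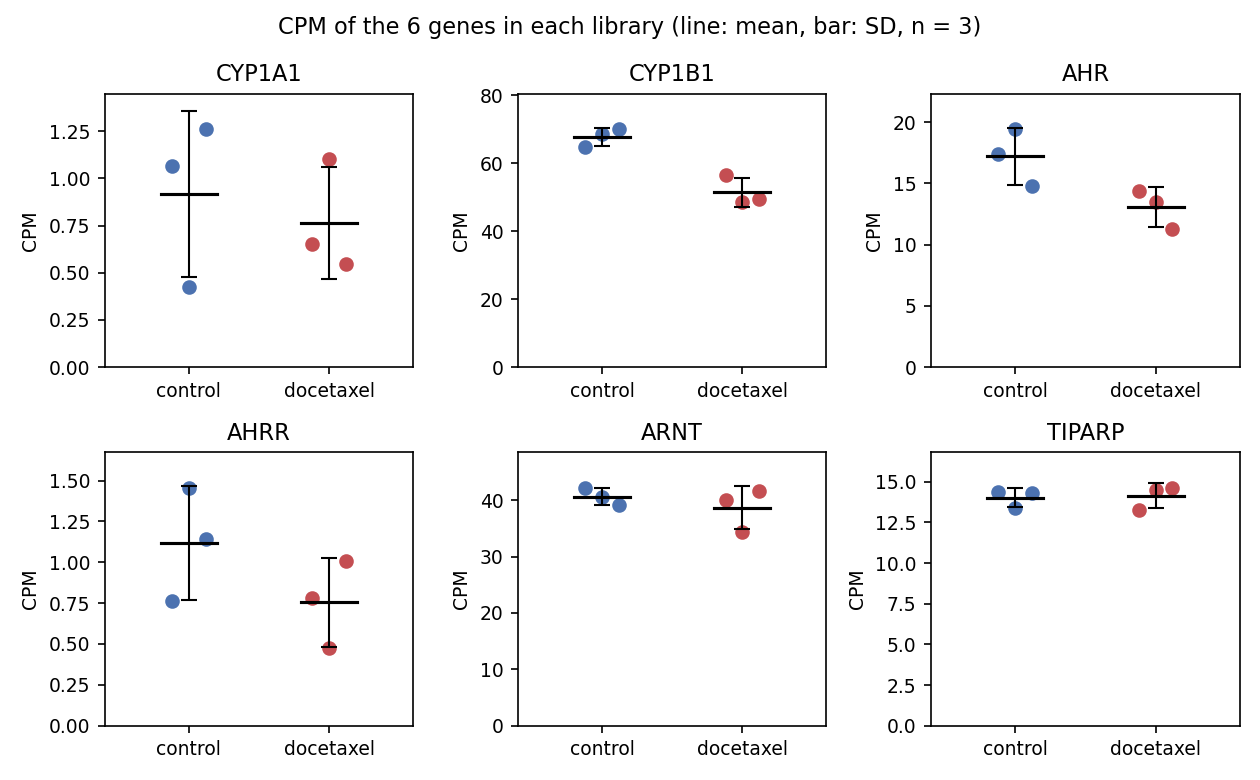
CPM of each of the 6 genes by library, from 0 on each vertical axis, with the mean as a line and the SD as a bar (n = 3 per group). CYP1B1 and AHR are lower in all docetaxel libraries than in all controls, and the groups overlap in the other 4 genes.

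Counts of overlapping genes bear on some of these values, because the strand setting of the counting is not known here. In GENCODE 29 (GRCh38), CYP1B1 shares 678 exonic bases with CYP1B1-AS1, an antisense RNA whose read counts were 90, 55 and 130 for the controls and 70, 72 and 73 after docetaxel. Each library held far more CYP1B1 reads. It also shares 96 bases with RMDN2, which had between 86 and 125 reads per library, and 69 bases with RMDN2-AS1, which had 9 reads in all. TIPARP shares 37 bases with TIPARP-AS1, which had between 90 and 170 reads. AHR shares 270 bases with an unnamed antisense gene that had between 19 and 30 reads, and 2373 bases with an unnamed coding gene model that had 0 reads. AHRR shares 244 exonic bases with PDCD6 on the same strand, and PDCD6 had between 829 and 1059 reads per library against 18 to 62 for AHRR. How reads in shared bases were assigned is unknown.

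The libraries also differed in how counts ran with the GC content of transcripts. The slope of a library's log2 CPM deviation on GC content, per 10 percentage points, lay between -0.13 and -0.05 in control and between 0.05 and 0.10 with docetaxel. The GC content of the longest transcript was 38.2% for AHR, 42.8% for TIPARP, 44.1% for CYP1B1, 47.1% for ARNT, 53.3% for CYP1A1 and 57.4% for AHRR. AHR is thus at the low end, at percentile 8.23 of tested genes. With a smooth trend on GC content and length entered as offsets for each library, 1.71% of tested genes were called lower and 2.56% higher, 4.27% together. CYP1B1 was still called lower with offsets, at a log2 fold change of -0.32 ± 0.06 (SE), while AHR was not, at -0.20 ± 0.10. The values of CYP1A1 and AHRR were -0.33 and -0.69, that of ARNT -0.04 and that of TIPARP 0.11, and these 4 were not called.

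**Figure D3:**
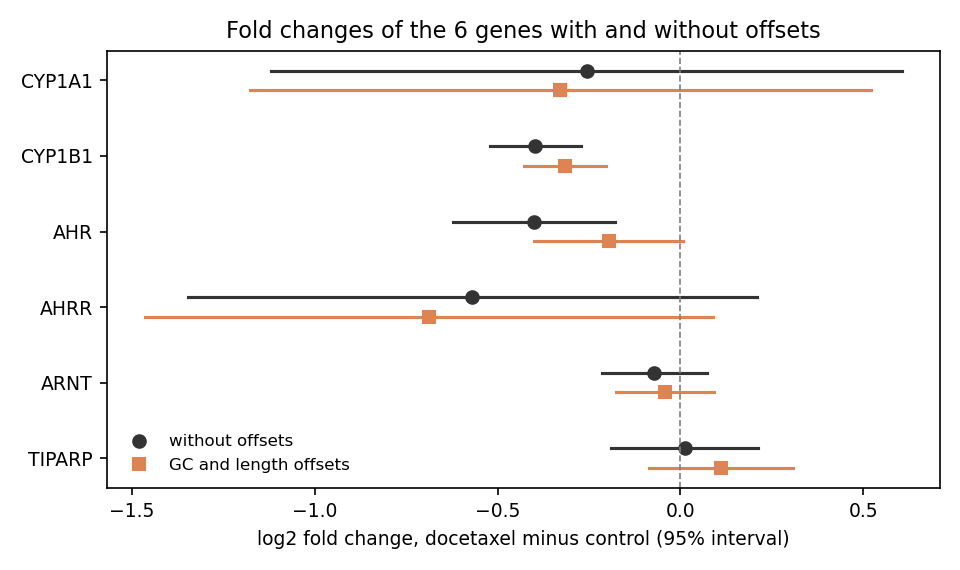
Log2 fold change of docetaxel minus control with its 95% confidence interval, without offsets in black and with GC and length offsets in orange. The interval of CYP1B1 stays below 0 with offsets, that of AHR comes to cross it, and CYP1A1 and AHRR have the widest intervals.

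HIF1A had the library pattern most like that of CYP1B1. Among 10095 genes with a symbol and at least 5 CPM on average, Pearson's r of log2 CPM with CYP1B1 over the 6 libraries was 0.997 for HIF1A, 0.997 for KCTD3, 0.996 for CDK12, 0.994 for YAF2 and 0.994 for CNIH1. These are descriptions over 6 points that share the 2 groups and the GC trend. A high r does not give the size of a change. The log2 fold changes were -0.42, -0.17, -0.16, -0.32 and -0.30 in the same order, against -0.40 for CYP1B1. With offsets HIF1A was at -0.19 and CYP1B1 at -0.32. HIF1A, the oxygen-regulated bHLH-PAS factor that also pairs with ARNT, stood at 83.4, 91.8 and 90.8 CPM in control and 72.7, 61.9 and 64.0 CPM with docetaxel. As with CYP1B1, docetaxel replicate 1 was the nearest to the controls and replicates 2 and 3 were lower. Among the 6 genes themselves, r with CYP1B1 was 0.79 for AHR, 0.66 for AHRR, 0.42 for ARNT, 0.10 for CYP1A1 and -0.36 for TIPARP.

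**Figure D4:**
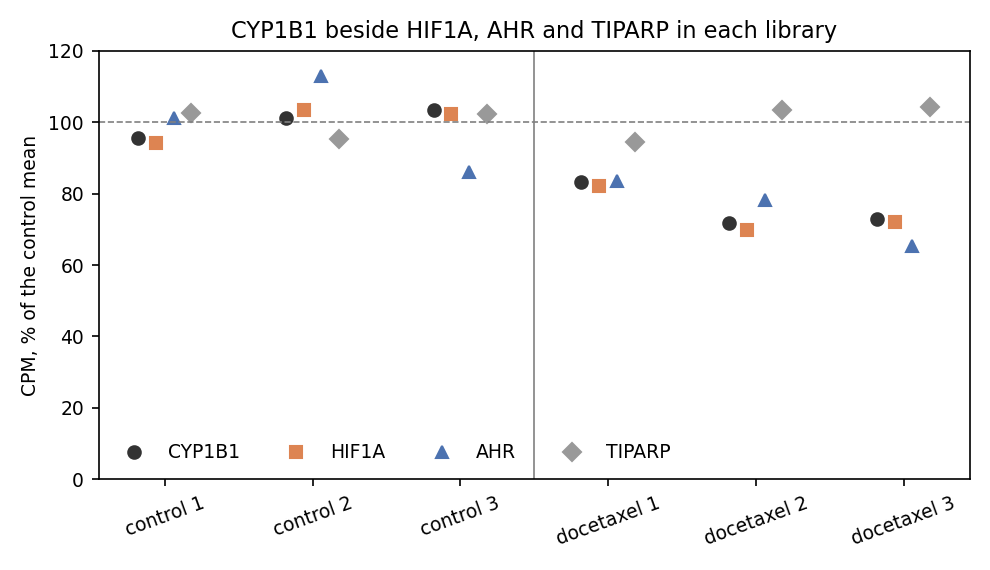
CPM of CYP1B1, HIF1A, AHR and TIPARP in each library as a percentage of that gene's control mean. Without offsets, CYP1B1 and HIF1A nearly coincide in all 6 libraries, AHR is lower with docetaxel but spreads more among the controls, and TIPARP stays near 100.

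Genes of the surrounding pathway were taken from 8 lists, with 127 genes other than the 6, of which 94 had enough reads to test. With docetaxel 17 rose and 14 fell, together 33.0% of those tested beside 17.0% of all tested genes, and their median log2 fold change was -0.03 beside 0.01. Here and in each list below, the shares are not matched for read level. Some list genes were very abundant, such as SLC7A5 at 6735 CPM and ENO1 at 3265 CPM in control. The lists were chosen with earlier results known, and whether they differ from other genes was not tested. Under the offsets 10 of the 94 were called higher and 7 of the 94 lower, beside 2.56% and 1.71% of all tested genes. Leaving out control replicate 2 gave 7 higher and 7 lower, and without docetaxel replicate 2 only 4 were higher. The other single libraries whose omission moved a count by over 1.5 times were control replicates 1 and 3 and docetaxel replicates 1 and 3, with 9, 10, 10 and 8 higher, and without docetaxel replicate 3 there were 8 lower.

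Of the 6 chaperone and partner genes that hold or carry the receptor, 2 rose and 1 fell, together 50% beside 17.0% of all tested genes. Leaving out 1 library gave 0 to 2 higher and 1 to 2 lower. HSP90AB1, the constitutive HSP90 that binds the receptor, was at 883 RPKM in control and HSP90AA1, its inducible form, at 338 RPKM. HSP90AB1 rose by 0.11 ± 0.03 on the log2 scale (SE, edgeR adjusted p = 0.019). HSP90AB1 was no longer called without control replicate 1 or 3 or docetaxel replicate 2 or 3 (adjusted p of 0.087, 0.083, 0.077 and 0.14), nor when scaled by library size alone (0.095). XPO1, the export factor that returns the receptor to the cytoplasm, fell by 0.21 on the log2 scale (adjusted p = 0.0017) and was at 0.04 with offsets. ARNT2, the tissue-restricted relative of ARNT, was at 0.201 RPKM and not called. Its log2 fold change was -0.70 ± 0.31 (SE), and its docetaxel libraries all lay below the controls, as in 15.0% of tested genes.

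Of 16 further receptor target genes, 8 could be tested, 3 rose and 1 fell, together 50% beside 17.0% of all tested genes. With offsets 2 of the 8 were called higher and 1 lower, beside 4.27% of all tested genes called in either direction. Neither CYP2S1 nor ALDH3A1 was among those called higher with offsets. Leaving out 1 library gave 1 to 2 higher and 0 to 1 lower. Beside CYP2S1, ALDH3A1, an aldehyde dehydrogenase of the classical receptor battery, averaged 3.38 ± 0.45 CPM in control and rose to 4.96 ± 0.55 CPM (SD, n = 3; edgeR adjusted p = 0.026). The ALDH3A1 call was lost with offsets (adjusted p = 0.22) and without control replicate 1 or 2 or docetaxel replicate 1 or 3 (0.079, 0.13, 0.10 and 0.10). NFE2L2, which encodes the antioxidant regulator NRF2, fell by 0.18 on the log2 scale (adjusted p = 0.028), and this call was lost with offsets (0.68) and without control replicate 1 or 2 or docetaxel replicate 1 (0.057, 0.13 and 0.069). NQO1, a quinone reductase at 130 RPKM, had a log2 fold change of 0.05 (adjusted p = 0.40). SLC7A5, an amino acid transporter at 1412 RPKM, was at 0.06 (adjusted p = 0.21) and at -0.11 with offsets, where it was called lower (adjusted p = 0.012). By limma-voom SLC7A5 was called higher, also at 0.06 (adjusted p = 0.0495). GSTA1, GSTA2 and SERPINB2 had 0 reads.

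Tryptophan is a source of receptor ligands, and of the 18 genes that metabolise it 9 could be tested. Of these 11.1% were called, beside 17.0% of all tested genes. QPRT, which turns the pathway's quinolinate toward NAD, rose by 0.14 ± 0.04 on the log2 scale (SE, edgeR adjusted p = 0.023). That call was lost with offsets (0.93) and without control replicate 1 or 2 or docetaxel replicate 1 or 2 (0.066, 0.13, 0.14 and 0.13), and when scaled by library size alone (0.097). None fell by edgeR, where 2 were lower at an unadjusted p under 0.05. By DESeq2 2 were called lower, one of them KYAT3, a kynurenine aminotransferase at 18.8 RPKM, and limma-voom called 0. IDO1 and IDO2, which open the kynurenine route, had 0 reads in every library, and TDO2, the third enzyme for that step, had 10 reads in all.

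Microsomal P450 enzymes draw electrons from POR and cytochrome b5 and need heme. In this list 6 of 16 tested genes rose and 2 fell, together 50% beside 17.0% of all tested genes. With offsets only 2 of the 16 were called, both higher, beside 4.27% of all tested genes called in either direction. Leaving out 1 library gave 3 to 4 higher and 0 to 3 lower, with 3 higher without control replicate 2 or docetaxel replicate 2 or 3. HMOX1, the heme-degrading oxygenase induced by oxidative stress, averaged 52.1 ± 2.6 CPM in control and rose to 66.5 ± 1.1 CPM (SD, n = 3; edgeR adjusted p = 7.7e-05) and stayed called with offsets. POR, the reductase of all microsomal P450 enzymes, was at 108 RPKM and rose by 0.16 ± 0.04 on the log2 scale (SE, adjusted p = 0.0031), but was at -0.01 with offsets. PGRMC1, a heme-binding P450 partner, was at -0.08 (adjusted p = 0.24). CYB5R3, a cytochrome b5 reductase, rose by 0.17 on the log2 scale (adjusted p = 0.0081), lost without docetaxel replicate 3 (0.052) and with offsets (0.81). UROD, a heme synthesis enzyme, rose by 0.16 (adjusted p = 0.022), lost with offsets (0.30) and without control replicate 2 or 3 or docetaxel replicate 2 (0.11, 0.053 and 0.29), and when scaled by library size alone (0.080).

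Estrogens are substrates of CYP1A1 and CYP1B1, and of 13 tested genes that form estrogens or clear their catechols 2 rose and 1 fell. Together these are 23.1%, beside 17.0% of all tested genes. Leaving out 1 library gave 0 to 2 higher and 1 lower. HSD17B11, a steroid and lipid-droplet dehydrogenase, averaged 40.6 ± 5.2 CPM in control and fell to 29.8 ± 2.9 CPM (SD, n = 3; edgeR adjusted p = 0.00056) and was also called lower with offsets. NQO2, a quinone reductase that can act on estrogen quinones, rose by 0.16 on the log2 scale (adjusted p = 0.0092), which was lost without docetaxel replicate 2 (0.073). HSD17B10, a mitochondrial dehydrogenase, rose by 0.19 (adjusted p = 0.014), lost with offsets (0.59) and without control replicate 1 or 2 or docetaxel replicate 2 (0.069, 0.11 and 0.18). CYP19A1, the aromatase, had 27 reads in all, too few to test.

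In the bHLH-PAS family outside the receptor, 13 genes were tested, of which 1 rose and 3 fell. Together these are 30.8%, beside 17.0% of all tested genes. Leaving out 1 library gave 0 to 1 higher and 1 to 4 lower. HIF1A averaged 88.7 ± 4.6 CPM in control and fell to 66.2 ± 5.7 CPM (SD, n = 3), which is -0.42 ± 0.06 on the log2 scale (SE; edgeR adjusted p = 1.1e-05). With offsets the log2 fold change was -0.19, and HIF1A was still called lower. Its relative EPAS1, which encodes HIF-2α, was at 0.01 ± 0.05 (adjusted p = 0.94), with a sign that turned in 6 of 17 alternatives. NCOA3, a steroid receptor coactivator, fell by 0.25 on the log2 scale (adjusted p = 0.0082) and CLOCK, the circadian factor, by 0.30 (adjusted p = 0.012). Both calls were lost with offsets (0.27 and 0.79), without control replicate 2 (0.083 and 0.080) and without docetaxel replicate 3 (0.063 and 0.053). NPAS1, a mainly neuronal factor, rose by 0.66 from 2.17 CPM (adjusted p = 0.030). That call was lost with offsets (0.38) and without control replicate 2 or 3 or docetaxel replicate 1 or 2 (0.096, 0.12, 0.11 and 0.15).

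ARNT also serves the hypoxia-inducible factors, and of 19 tested targets of these dimers 5 fell and 2 rose. Together these are 36.8%, beside 17.0% of all tested genes. With offsets 4 of the 19 were lower and 2 of the 19 higher, beside 1.71% and 2.56% of all tested genes. Leaving out 1 library gave 3 to 4 lower and 0 to 1 higher, with 3 lower without control replicate 2 or 3 or docetaxel replicate 3. CA9, the hypoxia-induced carbonic anhydrase, stood at 6.72, 6.95 and 7.30 CPM in control and 2.68, 3.28 and 3.24 CPM with docetaxel, with no overlap (log2 fold change -1.19 ± 0.16, SE, edgeR adjusted p = 6.8e-06). BNIP3, a mitophagy receptor, fell by 0.26 on the log2 scale (adjusted p = 0.00060) and SLC2A3, a glucose transporter, by 0.20 (adjusted p = 0.0013), and both stayed called with offsets. ENO1, a glycolytic enzyme at 626 RPKM, rose by 0.12 (adjusted p = 0.011). The ENO1 call was lost with offsets (0.35) and without control replicate 2 or docetaxel replicate 2 or 3 (0.074, 0.086 and 0.056). LDHA, which makes lactate, was at 230 RPKM and at -0.08 on the log2 scale (adjusted p = 0.11). LDHA was called lower by DESeq2 (0.042), by limma-voom (0.047) and when scaled by library size alone (0.0091).

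TIPARP is a member of the PARP family, and of 12 other tested members 1 fell and 0 rose. This is 8.33%, beside 17.0% of all tested genes. The one that fell was TNKS2, a tankyrase, at -0.29 ± 0.07 on the log2 scale (SE, edgeR adjusted p = 0.0026), and it was not called with offsets (0.13). At an unadjusted p under 0.05, 2 members were higher, and DESeq2 and limma-voom each called 0 higher. With offsets 1 of the 12 was called higher, beside 2.56% of all tested genes. PARP1, the DNA damage sensor at 14.3 RPKM, had a log2 fold change of 0.05 (adjusted p = 0.49), and PARP2, its relative at 10.5 RPKM, one of -0.08 (adjusted p = 0.48).

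**Figure D5:**
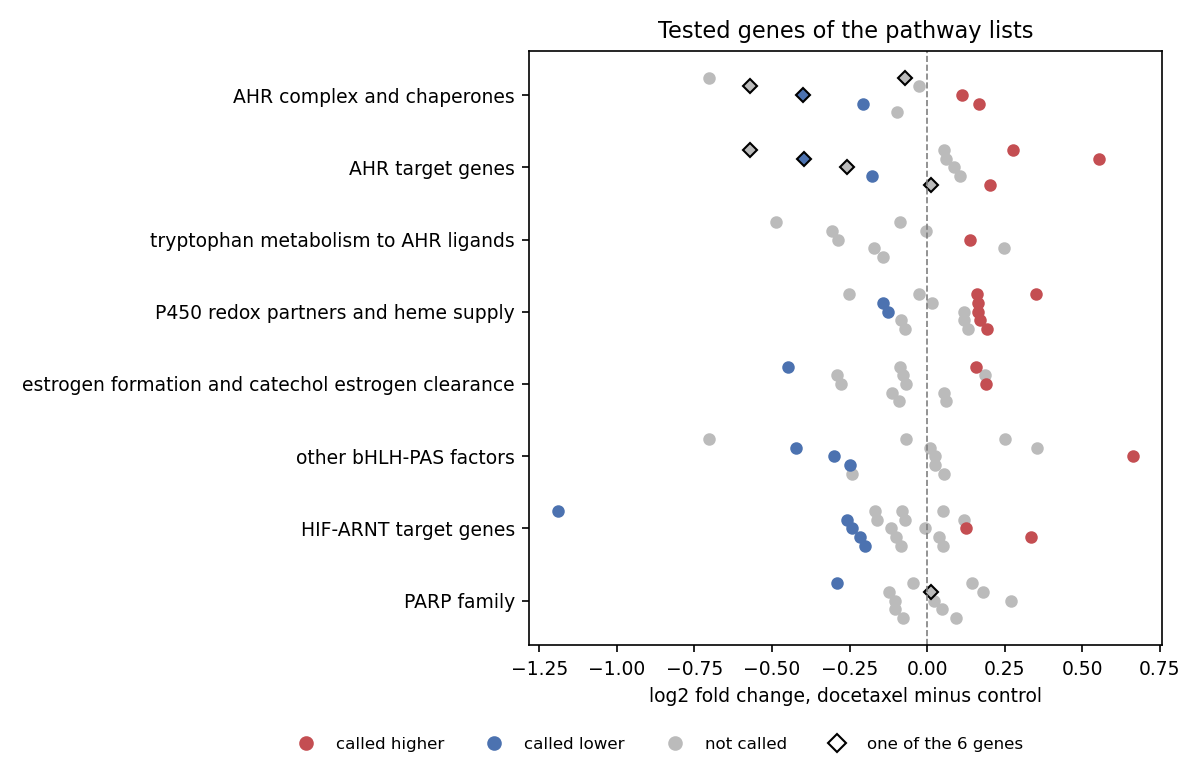
Log2 fold change of docetaxel minus control for each tested gene of the 8 pathway lists, with genes called higher in red, called lower in blue and not called in grey, and the 6 genes as outlined diamonds. CYP1B1 and AHR lie near -0.40, the lowest point is CA9 at -1.19, and the receptor targets spread to both sides of 0.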

How the data were processed

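The authors deposited whole-number read counts for 78932 Ensembl gene identifiers in 6 libraries, with a gene length. Counts were made with featureCounts 2.0.1 on GRCh38 and summarised with MultiQC 1.11, per the submitters' processing notes. For the aligner, annotation release, strandedness and handling of shared reads: not given in the sources used here. Groups and replicate numbers came from the labels.

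Genes were kept by filterByExpr (18040, with 99.9% of counts), scaled by TMM, and compared by edgeR 4.0.16 in R 4.3.3 (robust glmQLFit, then two-sided glmQLFTest), with Benjamini-Hochberg adjustment over all 18040 genes. The procedure was tested on simulated data. Each SE was set so as to return the p of its test. Likeness used log2(CPM + 0.5). Offsets came from a loess fit (span 0.5) to each library's log2 CPM deviations, against transcript GC and the log2 of the deposited gene length. GC came from GENCODE 29 transcripts and was known for 91.0% of tested genes. The other tested genes had no trend removed. Symbols matched 14951 tested genes. DESeq2 1.42.0 and limma 3.58.1 were alternatives.

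The 6 genes, the lists and the alternatives were chosen with earlier results of these data known. Named were, per list, up to 4 called genes with the smallest p and the 2 with the highest RPKM, the 6 most abundant P450 genes, genes overlapping the 6, and the 5 genes most like CYP1B1. Outside this rule, ARNT2, CYP1A2, CYP19A1, CYP51A1, IDO1, IDO2, TDO2, GSTA1, GSTA2, SERPINB2 and single cell-type markers were also named. P-values reflect only how these libraries vary, which may be technical. Of the genes this rule takes, 1 is not reported here, though the list counts include it.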

Additional observations from a re-analysis of the deposited data

How the results depend on the processing

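CYP1B1 was called lower in 16 of 17 alternatives, at log2 fold changes from -0.49 to -0.32, and ARNT kept its sign in all 17. All alternatives reuse the libraries in which the 6 genes were picked, so they give no separate support. Tested against a fold of 1.5, 6 genes were called higher and 0 lower, with 0 of the 6 genes and 0 and 0 pathway genes called, and the log2 fold changes of CYP1B1 (-0.40) and AHR (-0.40) did not pass. With GC and length offsets, 462 genes were higher and 309 lower, with 1 of the 6 genes lower, 10 pathway genes higher and 7 lower, and AHR at -0.20. Offsets turned the sign of XPO1 (0.038), HSP90AA1 (0.031), SLC7A5 (-0.11), POR (-0.011) and EPAS1 (-0.048). Same-numbered libraries did not deviate together (r of -0.02, -0.03 and 0.02). With the replicate number as a block, 8 pathway genes were higher and 9 lower. The block also lost the calls of HSP90AB1, NFE2L2, QPRT, UROD and ENO1 (edgeR adjusted p of 0.063, 0.057, 0.067, 0.0623 and 0.0504). The block with offsets gave 311 genes higher and 207 lower, 1 of the 6 lower, 5 and 6 pathway genes, AHR at -0.20, XPO1 at 0.038, HSP90AA1 at 0.031, SLC7A5 at -0.11, POR at -0.011 and EPAS1 at -0.048. Scaled by library size alone, 1096 genes and 9 pathway genes were higher, with TIPARP at -0.027 and EPAS1 at -0.029. Leaving out 1 library gave 990 to 1397 genes higher and 740 to 1841 lower, the fewest without control replicate 2, against 1649 and 1410. It gave 1 to 2 of the 6 genes lower, and 4 to 10 pathway genes higher and 7 to 15 lower. Log2 fold changes then ranged from -0.62 to 0.046 for CYP1A1, from -0.50 to -0.30 for AHR, from -0.022 to 0.035 for TIPARP and up to 0.032 for EPAS1, which, without control replicate 3 or docetaxel replicate 1 or 3, was at -0.0073, -0.0001 and -0.0056. With the length of the longest annotated transcript, control RPKM were 12.9 for CYP1B1, 2.47 for AHR, 0.198 for AHRR, 8.32 for ARNT and 3.35 for TIPARP. AHRR did not pass the filter of 1 CPM in 3 libraries. The cause of these differences was not tested. CYP1A1 and AHRR had the fewest reads of the 6 genes and the largest SE, which also holds the spread between libraries.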
